A study of Homo sapiens with 12 samples.

Results

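The 7 genes of the insulin-like growth factor (IGF) binding protein family, IGFBP1 to IGFBP7, were followed in 3 established lines of head and neck squamous carcinoma (HNSCC). They were taken by name from the count tables, and all 7 were found among 33514 gene symbols and were among the 17897 genes with enough counts to be tested. SCC1, SCC6 and SCC25 cells, each line grown alone in culture and described by the study as sensitive to cetuximab, received either cetuximab or phosphate-buffered saline (PBS, the untreated control) every day for 5 days. Cetuximab, given at 100 nM, is an antibody against the receptor of epidermal growth factor (EGFR) and keeps its ligands from binding. Single-cell RNA sequencing (scRNA-seq, droplet-based 3′ chemistry) had been run on 2 replicates per group, which made 12 samples in 6 groups. No genetic change was introduced in any group, and no non-tumour cells were part of the cultures. The tables held 23914 cells (5270 of SCC1, 9724 of SCC6 and 8920 of SCC25) with 57057402 to 112170073 unique molecular identifiers (UMIs, each standing for 1 captured transcript) per sample. Whether both replicates of a group came from separate cultures is not clear, so all errors and adjusted p-values (FDR) cover the spread between these samples, which may be technical.

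IGF binding proteins are secreted proteins that hold IGF1 and IGF2 outside the cell, lengthen their stay in tissue and blood, and set how much of them reaches the IGF1 receptor. Proteases release the growth factors again by cutting the binding proteins, and several members also bind to matrix or to the cell surface and act without IGF. IGFBP7 binds IGFs only weakly and is often placed apart from the others as a related protein. In squamous carcinomas the family has been studied because the IGF1 receptor shares downstream signalling with EGFR.

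Squamous markers had a summed level from 1558.5 to 15277 CPM per sample (UMIs of a gene scaled to the total of its sample, with TMM factors). All 8 of 8 reached 1 CPM in at least 1 sample, but their makeup differed by line. In SCC6, KRT14 stood at 0.931 and 0.424 CPM with PBS and 2.52 and 1.49 CPM with cetuximab. The other lines had 1155 to 4675 CPM of KRT14. KRT5 stood at 1.16 to 4.47 CPM in SCC6 and 324 to 2281 CPM in the other lines. The highest of the 8 in SCC6 were KRT17 (492 to 2438 CPM) and PERP (654 to 813 CPM). Endothelial markers stayed at a summed 0.0326 to 0.684 CPM. Of 4 leukocyte markers, CD68, a lysosomal protein that is not restricted to leukocytes, was the exception above 1 CPM, and the pan-leukocyte gene PTPRC had at most 0.0691 CPM. Of 3 smooth muscle markers RGS5 alone reached 1 CPM. Fibroblast markers (7 genes) were low but higher with cetuximab in each line, at 15.4 to 16.6 against 7.23 to 7.52 CPM in SCC1, 23.0 to 27.3 against 1.13 to 3.33 CPM in SCC6, and 44.6 to 83.0 against 19.9 to 41.2 CPM in SCC25. Among them COL1A1 reached 22.6 CPM in SCC6 and LUM 58.0 CPM in SCC25, both with cetuximab, PDGFRB stood at 1.31 and 1.36 CPM with cetuximab and 0.0358 and 0.0653 CPM with PBS in SCC6, and PDGFRA had at most 0.185 CPM in any sample. These ranges move in the same direction as the IGFBP7 level described later, and their part in it was not tested.

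The family is spread over 5 chromosomes, with 2 close pairs. On GRCh38.p14, IGFBP2 (chr2:216632828-216664436) and IGFBP5 (chr2:216672105-216695549) are separated by 7668 bases, and IGFBP1 (chr7:45888488-45893660) and IGFBP3 (chr7:45912245-45921272) by 18584 bases. IGFBP4 lies at chr17:40443450-40457725, IGFBP6 at chr12:53097667-53102340 and IGFBP7 at chr4:57030773-57110385. RefSeq promoter windows, from 250 bases before to 50 bases after an annotated start, were found for 5 of the 7 genes. Of the 5, all passed the test with cetuximab in SCC6 in the fit that pairs replicates, where 20.1% of all genes tested did. In the same fit without pairing, IGFBP5 alone of the 5 passed. The 4 with a single window are shown. IGFBP2 has 3 windows, of which 2 hold GGGCGG and 1 holds ACGTG, and they are not printed. Capitals mark matches, on either strand, to any of the 5 motifs searched, which were the TATA box TATAAA, the GC box GGGCGG, the AP-1 motif TGANTCA, the forkhead motif GTAAACA and the hypoxia response core ACGTG, and no matches overlapped in these windows.
IGFBP3, chr7:45921223-45921522, minus strand: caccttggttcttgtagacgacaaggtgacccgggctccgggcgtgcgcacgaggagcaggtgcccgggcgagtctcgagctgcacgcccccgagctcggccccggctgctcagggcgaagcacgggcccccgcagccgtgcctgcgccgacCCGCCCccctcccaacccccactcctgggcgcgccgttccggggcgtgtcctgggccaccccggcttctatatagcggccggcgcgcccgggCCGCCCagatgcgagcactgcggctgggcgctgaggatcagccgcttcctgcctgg
IGFBP4, chr17:40443200-40443499, plus strand: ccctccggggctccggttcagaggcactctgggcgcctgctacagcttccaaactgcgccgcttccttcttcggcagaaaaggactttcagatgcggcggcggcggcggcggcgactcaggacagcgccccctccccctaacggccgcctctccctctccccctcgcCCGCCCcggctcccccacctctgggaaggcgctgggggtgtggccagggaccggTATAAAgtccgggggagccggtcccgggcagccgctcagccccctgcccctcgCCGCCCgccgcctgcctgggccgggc
IGFBP5, chr2:216695500-216695799, minus strand: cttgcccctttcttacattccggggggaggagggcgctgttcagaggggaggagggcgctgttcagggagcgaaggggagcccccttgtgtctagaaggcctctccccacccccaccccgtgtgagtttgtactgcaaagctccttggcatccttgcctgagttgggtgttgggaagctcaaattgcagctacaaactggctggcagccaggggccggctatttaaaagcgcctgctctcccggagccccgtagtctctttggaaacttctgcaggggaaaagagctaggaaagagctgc
IGFBP6, chr12:53097417-53097716, plus strand: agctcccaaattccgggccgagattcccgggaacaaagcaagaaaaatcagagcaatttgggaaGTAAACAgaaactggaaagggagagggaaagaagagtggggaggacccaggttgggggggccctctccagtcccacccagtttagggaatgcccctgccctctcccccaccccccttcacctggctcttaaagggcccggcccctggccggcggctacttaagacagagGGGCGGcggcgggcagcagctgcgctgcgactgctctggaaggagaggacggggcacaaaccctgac
The GC box was found 2 times in the windows of IGFBP3 and IGFBP4 and 1 time in that of IGFBP6, and it occurs in 45.0% of all 35116 windows in the table. TATAAA was found in IGFBP4 (11.5% of all windows) and GTAAACA in IGFBP6 (3.42% of all windows). The IGFBP5 window held none of the 5 motifs. TGANTCA (7.71% of all windows) and ACGTG (21.4%) had no match in any of the 4. The GC content was 74.7% for IGFBP3, 74.0% for IGFBP4, 61.7% for IGFBP6 and 59.0% for IGFBP5, with a median of 58.7% over all windows. A match here is a description of letters and not of a bound site.

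The 3′ tags counted here do not scale with transcript length, so UMIs were set side by side between genes. Other differences in capture between genes were not examined. Over all cells, IGFBP7 made up 46.3% of 1915869 UMIs from the family, IGFBP6 25.3%, IGFBP3 18.8%, IGFBP4 6.05%, IGFBP5 2.05% and IGFBP2 1.48%. This pooled order did not hold in every sample, since IGFBP6 led in SCC6 PBS replicate 1 (55.0% against 24.4% for IGFBP7) and in both SCC25 PBS samples (46.7% and 49.5% against 30.1% and 29.5%). In every SCC1 sample IGFBP6 (5.00% to 9.21%) was below IGFBP3 (23.6% to 33.1%) and IGFBP4 (8.05% to 17.7%). With cetuximab in SCC6, IGFBP5 (22.0% and 13.7%) was above IGFBP6 (10.8% and 9.41%). IGFBP1, best known as a liver protein controlled by insulin, had 295 UMIs in all samples together. Every line thus carried several members at once, and untreated cells thinned to an equal 15000 UMIs held a median of 4 different members in SCC1, 2 in SCC6 and 4 in SCC25.

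**Figure D1:**
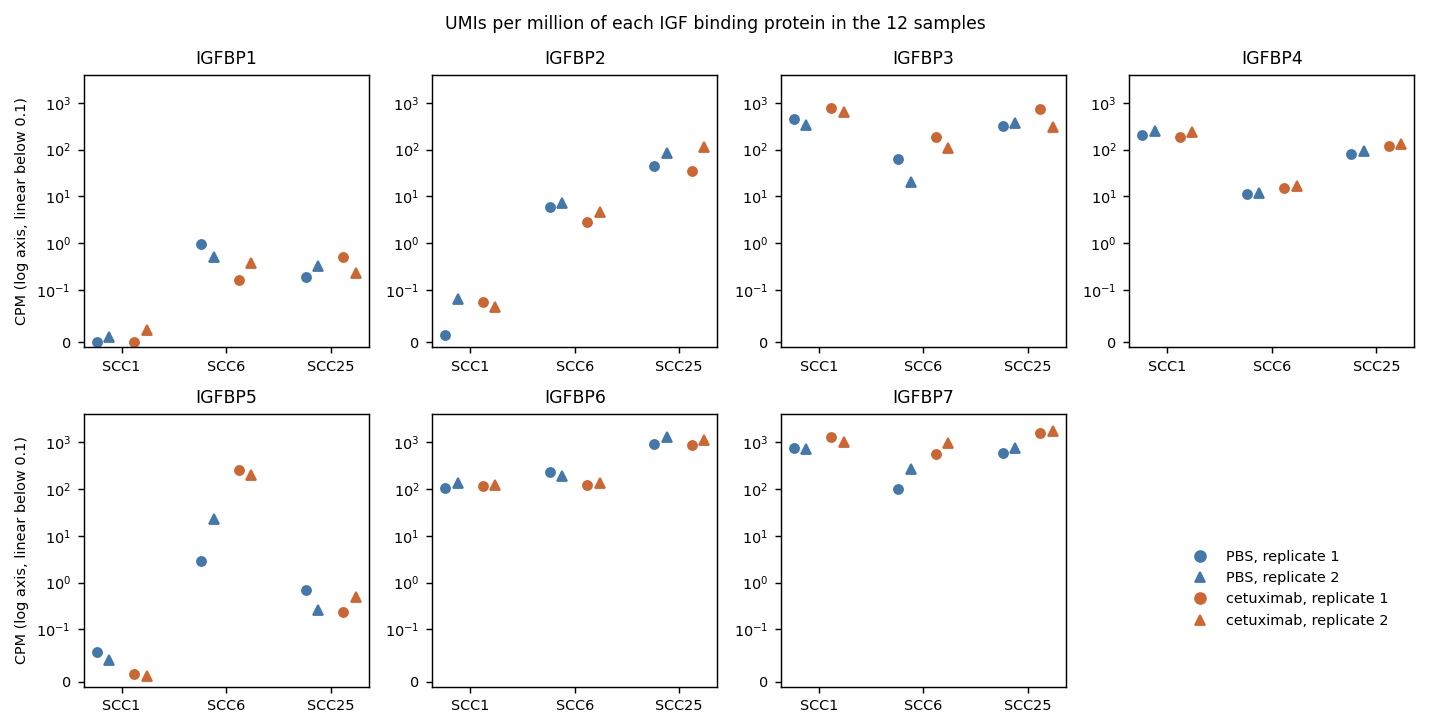
Level of each IGF binding protein in CPM on a log axis that is linear below 0.1, with 1 point per sample, PBS in blue and cetuximab in orange, circles for replicate 1 and triangles for replicate 2. IGFBP7 was higher with cetuximab in all 3 lines, and IGFBP5 was above 1 CPM in SCC6 alone.

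Untreated lines differed in nearly every member, and each line had its own set. SCC6 carried the least of the family, with a summed level of 416 and 511 CPM in the PBS replicates, against 1525 and 1423 CPM in SCC1 and 1944 and 2577 CPM in SCC25. With PBS, SCC6 differed from SCC1 in 7 of 7 members, SCC25 from SCC1 in 5 of 7 and SCC25 from SCC6 in 6 of 7 (FDR under 0.05, edgeR quasi-likelihood test). Calls were frequent between lines in general: 40.2%, 40.8% and 40.9% of all genes tested were called in these 3 comparisons.

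IGFBP3, the main carrier of IGFs in blood, stood at 457 and 335 CPM in untreated SCC1, 325 and 361 CPM in SCC25 and 64.4 and 20.5 CPM in SCC6. SCC1 and SCC25 overlapped (log2 difference of SCC25 from SCC1 −0.21 ± 0.52 SE, FDR = 0.779), and both lay above SCC6, with a log2 difference of SCC6 from SCC1 of −3.22 (FDR = 0.00134) and of SCC25 from SCC6 of 3.01 (FDR = 0.00195). IGFBP7 had the same order, with 763 and 704 CPM in SCC1, 585 and 761 CPM in SCC25 and 102 and 261 CPM in SCC6. Levels of SCC1 and SCC25 overlapped again (−0.13 ± 0.40, FDR = 0.828), and SCC6 was lower than SCC1 with a log2 difference of −2.02 (FDR = 0.00315).

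IGFBP4, which holds IGFs back until the protease PAPPA cuts it, fell into 3 separate levels. SCC1 had 200 and 252 CPM, SCC25 79.3 and 94.7 CPM and SCC6 11.6 and 12.05 CPM. All 3 pairs of lines differed beyond their spread, with log2 differences of −4.26 ± 0.23 for SCC6 from SCC1 (FDR = 1.09e-06), −1.38 ± 0.20 for SCC25 from SCC1 (FDR = 0.00047) and 2.88 ± 0.21 for SCC25 from SCC6 (FDR = 6.85e-06). IGFBP6, which prefers IGF2 over IGF1, had another order and was the leading member in untreated SCC25, with 908 and 1277 CPM, against 229 and 188 CPM in SCC6 and 105 and 131 CPM in SCC1. SCC25 was above SCC6 by 2.39 ± 0.24 on the log2 scale (FDR = 4.21e-05). The smaller step from SCC1 to SCC6, 0.82 ± 0.23 (FDR = 0.0157), was lost without SCC1 PBS replicate 1 (0.69, FDR = 0.113) or SCC6 PBS replicate 1 (0.67, FDR = 0.0896).

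IGFBP2 and IGFBP5, neighbours on chromosome 2, marked different lines. IGFBP2, a binding protein common in fetal and tumour tissue, stood at 45.6 and 83.8 CPM in untreated SCC25 and at 5.92 and 7.12 CPM in SCC6, and SCC1 held 1 and 8 UMIs. IGFBP5, which binds to extracellular matrix, stood at 2.85 and 22.5 CPM in untreated SCC6, an unequal pair, and under 1 CPM in SCC25. SCC25 was below SCC6 for IGFBP5 (−4.72 ± 0.86, FDR = 0.00179) and above it for IGFBP2 (3.31 ± 0.56, FDR = 0.00119). In SCC1, IGFBP5 had 4 UMIs in each PBS sample and IGFBP1 had 0 and 1, so fold differences from SCC1 are not given for IGFBP1, IGFBP2 and IGFBP5, whose SCC1 libraries were at or near the floor of 3 counts. The call of SCC25 over SCC1 for IGFBP5 (FDR = 0.0440) was lost without SCC1 PBS replicate 1 (FDR = 0.122), SCC1 PBS replicate 2 (FDR = 0.177) or SCC25 PBS replicate 1 (FDR = 0.203). IGFBP1 had 0.979 and 0.501 CPM in untreated SCC6 and 0.187 and 0.330 CPM in SCC25 (FDR of their difference 0.0858).

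**Figure D2:**
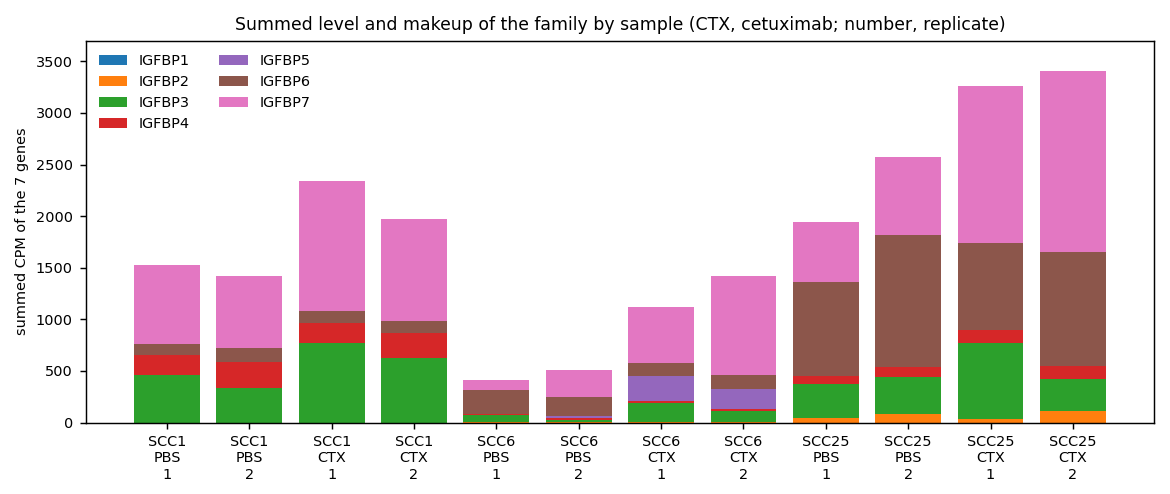
Summed CPM of the 7 IGF binding proteins in each of the 12 samples, split by gene. The bars ran from 416 CPM in SCC6 PBS replicate 1 to 3405 CPM in SCC25 cetuximab replicate 2, and IGFBP7 widened with cetuximab in each line. Untreated SCC6 had the shortest bars and SCC25 the tallest, but SCC25 PBS replicate 1 (1944 CPM) lay below both SCC1 cetuximab samples (2340 and 1972 CPM).

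To ask how the family responded when EGFR was blocked, cetuximab was compared with PBS in each line and across lines. IGFBP7, a secreted matrix-associated protein linked to growth arrest, was higher in both cetuximab samples than in both PBS samples of every line. In SCC1 it was at 1261 and 985 CPM with cetuximab and 763 and 704 CPM with PBS. In SCC6 it was at 546 and 964 CPM with cetuximab and 102 and 261 CPM with PBS, and in SCC25 at 1528 and 1750 CPM with cetuximab and 585 and 761 CPM with PBS. No other member was above PBS without overlap in all 3 lines, and 3.86% of all genes tested were.

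Across the 3 lines IGFBP7 rose by 1.32 ± 0.28 on the log2 scale (edgeR FDR = 0.0262) and was the single member of 7 called, against 3.67% of all genes tested. This call was lost without SCC1 PBS replicate 2 (1.37, FDR = 0.0518), SCC25 PBS replicate 1 (1.28, FDR = 0.0528) or SCC6 PBS replicate 2 (1.36, FDR = 0.0662). Equal replicate numbers deviated together in each line, which with 2 replicates per group rests only on the sign of a correlation. A fit with the replicate number as a block within lines is given where it changes a call. Its pairing was taken from these same data. With the block, IGFBP3 was called too (1.10 ± 0.28, FDR = 0.0398, without the block 1.08 ± 0.32, FDR = 0.0803), while 11.6% of all genes were. DESeq2 called these 2 members too, beside 10.1% of all genes. Without SCC25 cetuximab replicate 2 it was called without the block as well (1.26, FDR = 0.0454). The other 5 members were not called across lines with or without the block.

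SCC6 showed the largest fitted changes of IGFBP3, IGFBP5 and IGFBP7 among the 3 lines. IGFBP5 went from 2.85 and 22.5 CPM with PBS to 247 and 194 CPM with cetuximab, with log2 fold change 4.12 ± 0.81 (FDR = 0.0240), and IGFBP7 rose by 2.06 ± 0.41 (FDR = 0.0259). These 2 of 7 were called in SCC6, against 3.81% of all genes tested. By equal replicate number the IGFBP5 ratio was 86.7-fold in replicate 1 and 8.64-fold in replicate 2, a spread set by the PBS samples, and the IGFBP7 ratio was 5.38-fold and 3.70-fold.

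Both SCC6 calls needed 3 of the 4 samples, and when SCC6 was fitted by itself the FDR was 0.0696 for IGFBP5 and 0.0984 for IGFBP7. Leaving out 1 of them moved the IGFBP5 log2 change between 3.30 and 6.27 and its FDR between 0.00549 and 0.117. The call was lost without cetuximab replicate 1 (FDR = 0.117), cetuximab replicate 2 (FDR = 0.0526) or PBS replicate 1 (FDR = 0.0940). For IGFBP7 the same 3 omissions gave log2 changes of 2.41 (FDR = 0.0649), 1.59 (FDR = 0.0984) and 1.53 (FDR = 0.152). Its direction held in each, with 1.53 to 2.89 over all 4 omissions.

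The remaining members of SCC6 parted in direction. IGFBP3 stood at 190 and 108 CPM with cetuximab and 64.4 and 20.5 CPM with PBS (1.81 ± 0.53, FDR = 0.0917). IGFBP4 was at 15.3 and 16.6 CPM with cetuximab and 11.6 and 12.05 CPM with PBS (0.44 ± 0.20, FDR = 0.255). These groups did not overlap, but neither passed the test. IGFBP6 stood at 121 and 134 CPM with cetuximab and 229 and 188 CPM with PBS (−0.71 ± 0.23, FDR = 0.117). IGFBP2 was at 2.85 and 4.75 CPM against 5.92 and 7.12 CPM (−0.78 ± 0.53, FDR = 0.453), and IGFBP1 was under 1 CPM in all 4 samples (−1.43 ± 0.64, FDR = 0.249). All 7 members were thus free of overlap between cetuximab and PBS in SCC6, as were 46.9% of all genes tested.

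With the replicate block, 6 of 7 members were called in SCC6, while 20.1% of all genes were (9.94% higher, 10.1% lower). IGFBP7 (2.16 ± 0.15, FDR = 0.00041), IGFBP3 (1.98 ± 0.31, FDR = 0.00539), IGFBP5 (4.71 ± 0.78, FDR = 0.00621) and IGFBP4 (0.44 ± 0.12, FDR = 0.0361) were higher. IGFBP6 (−0.70 ± 0.14, FDR = 0.0112) and IGFBP2 (−0.81 ± 0.24, FDR = 0.0479) were lower, and IGFBP1 was not called (FDR = 0.160). Where the pairing of samples was used, the family split into 4 members up and 2 down. DESeq2, and a block term shared by the lines, each called IGFBP3, IGFBP5, IGFBP6 and IGFBP7, beside 9.91% and 13.8% of all genes.

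**Figure D3:**
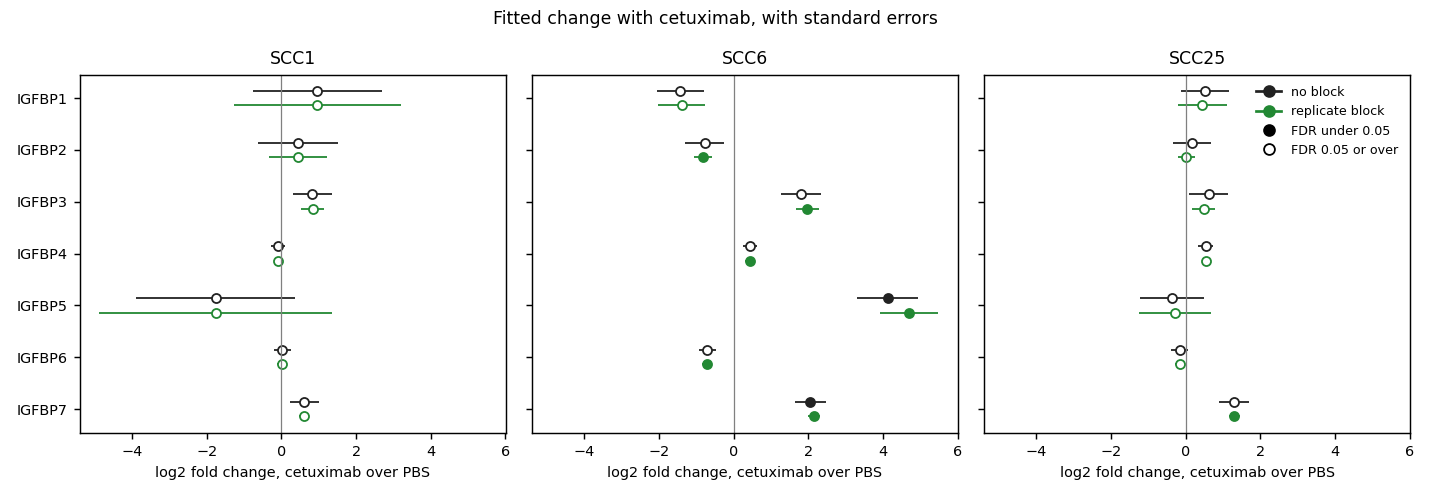
Fitted log2 fold change of cetuximab over PBS for each member in each line, with bars of 1 standard error, black without and green with the replicate block, and filled points for an FDR under 0.05. In SCC6, IGFBP5 and IGFBP7 were filled in both fits, and in SCC25 IGFBP7 was filled with the block.

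In SCC25, no member was called without the block, as for all genes tested (0.0% called, 1041 genes at an unadjusted p under 0.05). IGFBP7 had the largest estimate, 1.28 ± 0.40 (FDR = 0.633), and with the block it was called at 1.29 ± 0.15 (FDR = 0.0125), as were 0.978% of all genes. IGFBP4 was at 122 and 130 CPM with cetuximab and 79.3 and 94.7 CPM with PBS (0.53 ± 0.20, FDR = 0.756, with the block 0.0865). IGFBP7 and IGFBP4 were the 2 of 7 members without overlap between the groups, against 29.7% of all genes. IGFBP3 had no common direction, since cetuximab replicate 1 stood at 736 CPM and replicate 2 at 311 CPM, against 325 and 361 CPM with PBS. IGFBP6 was at 845 and 1102 CPM with cetuximab and 908 and 1277 CPM with PBS, and IGFBP2 at 34.6 and 111 CPM and at 45.6 and 83.8 CPM. In both genes replicate 2 exceeded replicate 1 in either treatment.

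SCC1 likewise had no member called, and 0.0168% of all genes were (1570 at an unadjusted p under 0.05). IGFBP7 had a log2 change of 0.61 ± 0.40 (FDR = 0.769, with the block 0.0553, where 4.45% of all genes were called), and IGFBP3, at 774 and 630 CPM with cetuximab and 457 and 335 CPM with PBS, 0.83 ± 0.52 (FDR = 0.757, with the block 0.170). Neither overlapped between the groups, and IGFBP5, at 1 and 1 UMIs with cetuximab and 4 and 4 with PBS, was below without overlap. These 3 of 7 compare with 42.7% of all genes. IGFBP4 (188 and 236 CPM with cetuximab, 200 and 252 CPM with PBS) and IGFBP6 (117 and 121 CPM, 105 and 131 CPM) overlapped and had log2 changes of −0.09 ± 0.20 and 0.01 ± 0.23.

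Whether the response differed between lines was tested with the interaction of line and treatment. In the edgeR fit without the block no member was called, nor was any other gene (0.0% of genes, 1318 before adjustment), and the lowest FDR among members was 0.415 for IGFBP5. DESeq2 called 276 genes (1.67% of those it tested) and no member. With the block, IGFBP7 was called (FDR = 0.0312), as were 1.29% of all genes, and its fitted log2 changes were 0.60 in SCC1, 2.16 in SCC6 and 1.29 in SCC25. IGFBP5 reached an FDR of 0.140 in the same fit.

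At the level of the whole family, SCC6 had the largest ratio of cetuximab to PBS. The summed level went from 416 and 511 CPM with PBS to 1123 and 1422 CPM with cetuximab. In SCC1 it went from 1525 and 1423 to 2340 and 1972 CPM, and in SCC25 from 1944 and 2577 to 3266 and 3405 CPM. The makeup shifted as well. IGFBP6 accounted for 55.0% and 36.8% of family UMIs in untreated SCC6 and for 10.8% and 9.41% with cetuximab, and IGFBP5 for 0.685% and 4.40% against 22.0% and 13.7%. In SCC25, IGFBP6 had 46.7% and 49.5% of family UMIs with PBS and 25.9% and 32.4% with cetuximab, and IGFBP7 was at 30.1% and 29.5% with PBS and 46.8% and 51.4% with cetuximab, whereas in SCC1 it was at 50.04% and 49.5% with PBS and 53.9% and 49.9% with cetuximab.

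Single cells showed whether a level came from many cells or few. Each cell was thinned to 15000 UMIs, which kept 23063 cells and left out 851 shallower ones, and a cell with 1 or more UMIs was called positive. Genes that these cells should lack, PTPRC, CD3E, ALB and HBB, reached a positive share of 0.151% at the highest (0.345% without thinning). IGFBP1 was positive in 1.06% and 0.534% of untreated SCC6 cells and in 0.270% and 0.488% with cetuximab, and in SCC1 0 of 938 thinned cells of cetuximab replicate 1 held it, which allows up to 0.320% of cells with a UMI at this depth by a limit of 3 counts (0.3925% by the exact interval) and sets no limit on cells expressing the gene.

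IGFBP5 in SCC6 was found in few untreated cells and in many more cetuximab cells. It was positive in 2.15% (95% exact interval 1.63 to 2.78, counting error only) and 7.55% (6.54 to 8.68) of PBS cells and in 57.7% (55.7 to 59.6) and 50.03% (47.6 to 52.5) of cetuximab cells. Its UMIs were uneven among cells. The 1% of cells with most of them held 71.4% and 50.5% of IGFBP5 UMIs with PBS and 16.1% and 17.0% with cetuximab, and positive cells carried a mean of 1.84 and 4.42 UMIs with PBS and 6.91 and 6.16 with cetuximab. In PBS replicate 1 the top 1% was 27 cells and 57 cells were positive, so a high share there partly restates the low positive share. In the other lines IGFBP5 was positive in at most 0.731% of cells.

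IGFBP7 in SCC6 was positive in 57.5% and 84.5% of PBS cells and in 96.8% and 98.9% of cetuximab cells, and the median went from 1 and 3 to 7 and 13 UMIs per cell. In SCC1 and SCC25 it was positive in at least 98.4% of cells of every sample, and there its median rather than its share moved, from 11 and 10 to 18 and 14 UMIs in SCC1 and from 7 and 9 to 18 and 22 UMIs in SCC25. IGFBP7 was also spread evenly, with 3.15% to 7.30% of its UMIs in the top 1% of cells. IGFBP3 was positive in 37.7% and 18.6% of PBS cells and 70.6% and 56.4% of cetuximab cells of SCC6.

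**Figure D4:**
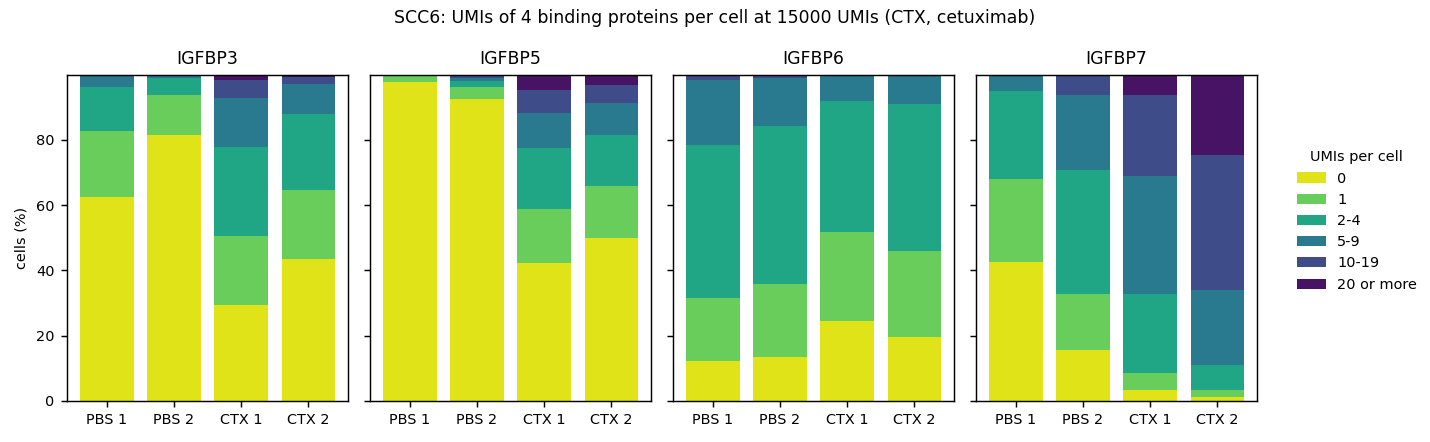
Share of SCC6 cells, in percent, by the number of UMIs of IGFBP3, IGFBP5, IGFBP6 and IGFBP7 at 15000 UMIs per cell, with 1 bar per sample. Cells without IGFBP5 made up 97.9% and 92.4% with PBS and 42.3% and 49.97% with cetuximab, and cells with 20 or more IGFBP7 UMIs 0.0% and 0.411% against 6.40% and 24.5%.

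Over the 3 lines, positive shares were set against each other with a two-sided exact permutation test within lines, whose smallest possible p is 0.00926. IGFBP7 was higher by a mean of 9.32 percentage points (p = 0.00926, exact, higher in 6 of 6 pairs of equal number), IGFBP3 by 16.4 points (p = 0.0185, exact, 5 of 6), and the share for IGFBP6 fell by 6.95 points (p = 0.00926, exact, lower in 6 of 6). These 3 of 7 members were under 0.05 before adjustment, as were 17.7% of all genes. After adjustment over all genes the FDR was 0.147, 0.184 and 0.147, and 0.0% of genes passed by this exact test. Without thinning, IGFBP3 alone stayed under 0.05 (p = 0.0185, exact), and the differences for IGFBP7 and IGFBP6 were 4.95 and −3.26 points. Without either cetuximab replicate of SCC6 the exact p for IGFBP7 was 0.343, while the difference was 9.67 and 8.97 points, close to the full 9.32. A sign-flip test over the 6 pairs gave IGFBP3 an exact p of 0.0625. For IGFBP6 and IGFBP7 the same test gave 0.03125 each before adjustment, the smallest p it can give. IGFBP5 had a mean difference of 16.3 points that came from SCC6 (p = 0.259, exact). Most of the IGFBP7 difference came from SCC6 too, with 26.9 points there, 0.439 in SCC1 and 0.643 in SCC25.

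In SCC1 the share and the level of IGFBP6 parted. With cetuximab 60.7% and 63.2% of SCC1 cells were positive against 70.9% and 73.2% with PBS, while the level overlapped at 117 and 121 against 105 and 131 CPM, so no order is read from the share. The top 1% of SCC1 cells held 22.4% and 19.1% of IGFBP6 UMIs with cetuximab and 12.2% and 11.2% with PBS. In SCC6 both measures were lower in every cetuximab sample, with 75.5% and 80.4% positive cells against 87.8% and 86.6%. In SCC25, 95.6% to 98.6% of cells were positive in every sample. IGFBP4 was positive in 77.5% and 78.1% of SCC25 cetuximab cells against 63.9% and 67.4% of PBS cells, and over the 3 lines its share differed by 5.23 points (p = 0.0556, exact).

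**Figure D5:**
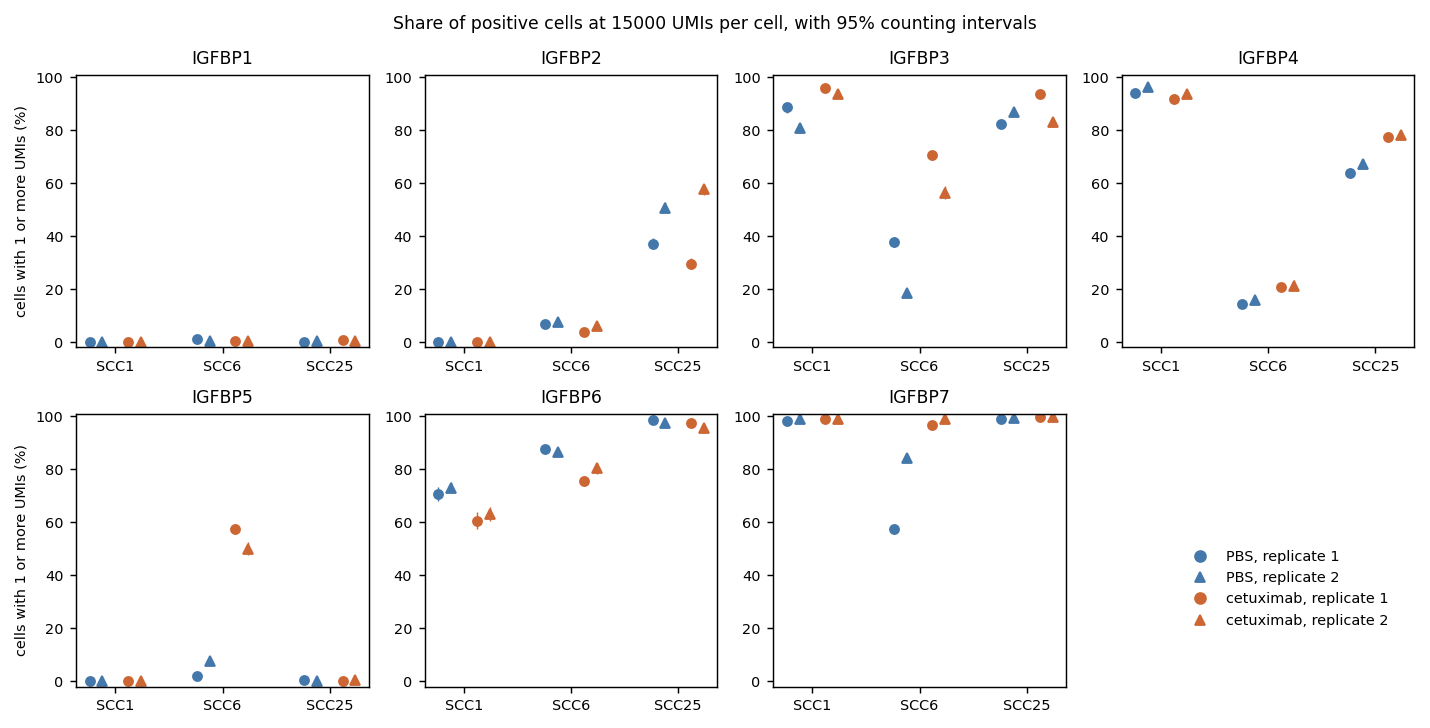
Percent of cells with 1 or more UMIs of each member at 15000 UMIs per cell, with 1 point per sample and exact 95% counting intervals, many of them smaller than the point. IGFBP5 was at 7.55% or less with PBS and 50.03% or more with cetuximab in SCC6, and IGFBP7 was at or above 98.4% in every SCC1 and SCC25 sample.

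VIM, the mesenchymal intermediate filament vimentin, is a gene the study followed, and it gave a second view of these cells. In SCC6 cetuximab cells, IGFBP5 was positive in 60.1% (58.1 to 62.1) of VIM-positive and 29.8% (23.7 to 36.5) of VIM-lacking cells of replicate 1, and in 52.6% (50.03 to 55.1) and 21.1% (14.5 to 29.0) of those of replicate 2. IGFBP3 had the same direction in these cells, with 72.4% against 49.0% and 58.6% against 31.6%, but not in all PBS cells of SCC6, with 35.3% against 38.2% in replicate 1 and 22.7% against 16.4% in replicate 2. In PBS cells, IGFBP5 was positive in 12.5% (10.4 to 14.9) of VIM-positive and 4.87% (3.86 to 6.05) of VIM-lacking cells of replicate 2, while the intervals of replicate 1 overlapped at 3.21% (1.81 to 5.24) and 1.92% (1.39 to 2.59). IGFBP6 was alike in both classes, with 75.8% against 73.1% and 80.3% against 81.2% in the cetuximab replicates.

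In SCC25, IGFBP2 and IGFBP3 were positive in a larger share of VIM-lacking than of VIM-positive cells in each sample. For IGFBP3 this was opposite to the SCC6 cetuximab cells. IGFBP3 was positive in 80.8% and 85.6% of VIM-positive and 88.8% and 88.0% of VIM-lacking PBS cells, and with cetuximab in 93.2% and 82.7% against 95.8% and 83.8%, with overlapping intervals in all samples but PBS replicate 1. VIM-positive PBS cells were positive for IGFBP2 in 34.4% and 45.1%, and VIM-lacking cells in 47.2% and 57.5%. IGFBP6 averaged 12.7 and 15.8 UMIs per thinned VIM-positive PBS cell and 18.8 and 23.8 per VIM-lacking cell, and 12.3 and 14.6 against 18.5 and 30.5 with cetuximab. The positive share of IGFBP6 differed little between the classes. It was 98.7% and 98.3% of VIM-positive and 98.3% and 96.8% of VIM-lacking PBS cells. With cetuximab it was 97.4% and 95.7% against 97.9% and 95.4%. All cells of a sample share 1 library, so these splits are descriptions and were given no test.

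Members also varied together from cell to cell in a few pairs. Among SCC6 cetuximab cells, Spearman rho of IGFBP3 and IGFBP5 was 0.319 (2592 cells) and 0.312 (1639 cells), of IGFBP5 and VIM 0.339 and 0.322, and of IGFBP3 and VIM 0.331 and 0.347. IGFBP3 and IGFBP6 gave −0.0138 and −0.0317 in the same cells. In SCC25 replicate 2, IGFBP2 and IGFBP6 had a rho of 0.297 with cetuximab (1993 cells) and 0.262 with PBS (2503 cells). These are values over cells of 1 library at 1 depth.

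Over the 12 samples, with the mean of each line removed, IGFBP5 followed IGFBP7 (r = 0.80) and ran against IGFBP6 (r = −0.81), and IGFBP2 followed IGFBP6 (r = 0.73). IGFBP5 was under 1 CPM in every SCC1 and SCC25 sample, so its coefficients rest mainly on SCC6 and its treatment groups. IGFBP2 was at or near the floor in SCC1, so that line adds little to its coefficient. Of 7558 genes at 10 CPM or more, the 3 most like IGFBP7 were TUBA1A (r = 0.984), MYL6 (0.974) and CMTM3 (0.968). For IGFBP6 they were COX15, GRB7 and MRPS35 (0.967 to 0.9699), for IGFBP3 CLSTN1, NAXD and TMEM263 (0.919 to 0.936), for IGFBP4 MAP3K7, BCAS4 and PIAS4 (0.883 to 0.937) and for IGFBP2 ZFP36, IDH1 and UBXN2B (0.911 to 0.917). The 12 points share their libraries and treatments, and the genes were picked as the highest of many, so the coefficients are descriptions.

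The rest of the IGF axis was read from 41 genes in lists of ligands, receptors, receptor substrates, proteases that cut the binding proteins, inhibitors of these proteases and other proteins with an IGF binding protein domain, of which 34 were tested. Of the ligands, IGF1 and INS were nearly absent, with at most 1 UMI of IGF1 and at most 3 of INS in any sample. IGF2 was found in every sample, between 1.18 and 34.3 CPM, and was not called (across lines 0.26 ± 0.49, FDR = 0.816). All 3 tested receptors were expressed and none was called across lines in the edgeR fit without the block, with 0.47 ± 0.19 for IGF1R (FDR = 0.171), 0.64 ± 0.18 for IGF2R, the receptor that clears IGF2 (FDR = 0.0730), and 0.07 ± 0.22 for INSR (FDR = 0.903). With the block, IGF1R (0.48 ± 0.11, FDR = 0.0263) and IGF2R (0.64 ± 0.08, FDR = 0.00738) were called, as were 11.6% of all genes. IGF2R was also called by DESeq2 (FDR = 0.0208), beside 10.1% of all genes, and by edgeR without a filter on low counts (FDR = 0.0326).

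Within each line, 0 of the 34 genes were called in the edgeR fit without the block. DESeq2 called 3 in SCC6 (1 higher, 2 lower), beside 9.91% of all genes. It called 1 in SCC1 (lower), beside 1.77%, and 0 in SCC25. With the block, 10 were called in SCC6 (8 higher, 2 lower), where 20.1% of all genes were. IGF1R and IGF2R were among the 8 higher. In SCC1 3 were called with the block (CTGF higher, HTRA1 and MMP3 lower), where 4.45% of all genes were, and in SCC25 0. Across lines 2 of 34 were called, beside 3.67% of all genes, both higher and both among the 13 proteases, ADAM9 (0.45 ± 0.11, FDR = 0.0411) and the gelatinase MMP2 (1.23 ± 0.26, FDR = 0.0283). MMP2 stood at 44.6 and 52.1 CPM with cetuximab against 8.47 and 22.0 CPM with PBS in SCC6, at 74.6 and 97.2 against 31.1 and 51.0 CPM in SCC25, and under 1 CPM in SCC1. With the block 8 of 34 were called across lines (7 higher, 1 lower), beside 11.6% of all genes, and DESeq2 called 6, all higher, beside 10.1%. The ADAM9 call was lost in 10 of 12 omissions of a sample and the MMP2 call in 5 of 12. The median log2 change across lines was 0.09 for the 34 genes, 0.29 for the 7 binding proteins and 0.01 for all genes tested.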

How the data were processed

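HNSCC lines were profiled by scRNA-seq with 10x Genomics 3′ v2 chemistry, with groups and numbers as the labels give them. The deposited tables held raw UMI counts per gene and cell, with 1 table per line and a deposited table naming the sample of each cell. Per the labels and methods, the authors aligned the reads with Cell Ranger (build GRCh38 in the submitters' processing notes, version not given in the sources used here) and filtered cells with Monocle 3. All 23914 deposited cells were used, with no doublet caller. Counts of the 24 symbols found on several rows were added. Between 3 and 10 cell barcodes occurred in both samples of a group, and 1 to 13 in samples of different groups.

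UMIs were summed per sample and tested with the edgeR quasi-likelihood F-test (edgeR 4.0.16, R 4.3.3) with TMM factors and filterByExpr, in place of the cell-level test of the study. Comparisons within a line, between untreated lines and the interaction came from 1 fit with 6 group means and 6 residual degrees of freedom. The change across lines came from a separate fit with line and treatment as additive terms. There, differences in response between lines count as residual spread. Two-sided p-values received Benjamini-Hochberg adjustment over 17897 genes (threshold 0.05). SE is the log2 fold change divided by the root of F. In the labels equal replicate numbers are only numbers, but deviations from the group means correlated (0.377 for SCC1, 0.349 for SCC6, 0.598 for SCC25), so the numbers were taken to pair samples. With 2 replicates per group, swapping the numbers in either treatment would only flip the sign, so the size does not speak for pairing. The pairing was thus taken from these same data and not from the labels. Replicate 2 also held more UMIs than replicate 1 in every group, and its part in the correlations was not tested. Alternatives were the replicate block within lines, 1 block term shared by the lines, DESeq2 1.42.0, RLE factors, no filter, a fit to 1 line, other cell filters (5% of cells with most UMIs or more than 20% mitochondrial UMIs left out) and omission of each sample. Shares came from cells thinned without replacement to 15000 UMIs, with Clopper-Pearson intervals, and were tested over 216 within-line arrangements. Sequences and positions are from RefSeq (GRCh38.p14). The scripts were tested on simulated data. All 7 members are described. Of the other lists, ligands, receptors and genes under an FDR of 0.05 with cetuximab in the edgeR fit without the block are named. List genes called only with the block or by DESeq2 are counted and not all named. For likeness the 3 genes of highest Pearson r of line-centred log2(CPM + 1) are named. The likeness result for IGFBP5 is not reported here. Members and lists were chosen with earlier results of these data known.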

Additional observations from a re-analysis of the deposited data

Results flagged for a closer look

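IGFBP7 stood out because its response differed between lines by the interaction test in the fit with the replicate block (FDR = 0.0312, edgeR). Its log2 changes in that fit were 0.60 in SCC1, 2.16 in SCC6 and 1.29 in SCC25, and without the block the interaction was not called (FDR = 0.734).

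IGFBP5 stood out because both cetuximab samples lay below both PBS samples in SCC1 and above them in SCC6, with fitted log2 changes that differed by 5.89. The SCC1 side rests on 1 and 1 UMIs against 4 and 4, the difference between these lines was not tested as a pair, and the interaction over all 3 lines had an FDR of 0.415 in the edgeR fit.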

How the results depend on the processing

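The count of members called in SCC6 was 2 as reported, 6 with the replicate block, 4 with 1 block term shared by the lines, 4 by DESeq2, 0 in a fit to the line alone and 0 to 2 when each sample was left out. In SCC25 it was 0, and 1 with the replicate block. For the interaction it was 0, with 1 under the replicate block (IGFBP7), 1 without a filter on low counts (IGFBP5) and 0 to 1 on leaving out a sample. Across lines it was 1, with 2 under the replicate block, the shared term, no filter and DESeq2 (IGFBP3 and IGFBP7 each time) and 0 to 2 on leaving out a sample. Members whose positive share had an exact p under 0.05 before adjustment numbered 3, where 17.7% of all genes did, and 1 without thinning. Of the 3, none passed after adjustment over all genes. The pairing block changed no other call on a member beyond these, the SCC25 over SCC1 difference of IGFBP5 (FDR = 0.0548 with the shared term) and the sign-flip test of IGFBP3. Of all genes, 3.81% were called in SCC6 as reported, 20.1% with the replicate block, 13.8% with the shared term and 9.91% by DESeq2. In SCC25 these shares were 0.0%, and 0.978% with the replicate block. For the interaction they were 0.0%, and 1.29% with it. Across lines they were 3.67%, 11.6% with either block and 10.1% by DESeq2. No such share is given for the fit to 1 line, the fit without a filter or the omissions. The cause of the shifts between settings was not tested.

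Directions that turned belonged to values that were not called. The IGFBP6 change in SCC1 was −0.059 without the 5% of cells with most UMIs, and with positive set at 2 or more UMIs the share differences were 0.0204 points for IGFBP1 and 0.66 points for IGFBP2. On leaving out a sample, log2 changes in SCC1 ranged from −2.34 to 3.29 for IGFBP1, −0.19 to 2.25 for IGFBP2, −0.25 to 0.084 for IGFBP4 and −0.12 to 0.19 for IGFBP6. In SCC25 they ranged from −0.18 to 0.99 for IGFBP1, −0.90 to 0.80 for IGFBP2, −0.13 to 1.10 for IGFBP3, −1.04 to 0.50 for IGFBP5 and −0.39 to 0.10 for IGFBP6. The untreated SCC25 and SCC1 difference ranged from −0.41 to 0.050 for IGFBP3 and −0.33 to 0.052 for IGFBP7. IGF2 ranged from −0.90 to 1.58 in SCC6 and −0.145 to 0.58 across lines, INSR from −0.086 to 0.21 across lines and the IGFBP2 share from −5.52 to 3.82 points. Low counts limit IGFBP1 in every line, and IGFBP2 and IGFBP5 in SCC1, where 0 to 8 UMIs per library stood behind each value.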

Other observations

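IGFBP7-AS1, a noncoding gene antisense to IGFBP7, had 46 and 31 UMIs in the SCC6 cetuximab samples and 5 and 6 in the SCC6 PBS samples, with a log2 change of 2.87 ± 0.57 (edgeR FDR = 0.0289). It had 0 to 7 UMIs in the samples of SCC1 and SCC25. How the counting assigned reads by strand was not given in the sources used here, so reads of this gene and of IGFBP7 cannot be told apart with certainty. AREG, an EGFR ligand, was lower with cetuximab in SCC6 (7.57 and 24.6 against 617 and 128 CPM, log2 change −4.53 ± 0.78, FDR = 0.0162), and EGFR itself was at 84.6 and 88.2 against 103 and 85.5 CPM (FDR = 0.809).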
